A study of Homo sapiens with 17 samples.

Results

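The genes described here are 9 that build and feed the inflammasome: the sensors NLRP1 and NLRP3, the adaptor PYCARD, the inflammatory caspases CASP1, CASP4 and CASP5, the caspase decoy CARD16, the pore-forming effector GSDMD and the cytokine IL18. They were taken by symbol from the 62754 genes of the count tables, and 6 of the 9 had enough counts to be among the 19473 genes tested. An inflammasome forms when a sensor meets a danger signal and gathers PYCARD, also called ASC, and procaspase-1 into a filament. Active caspase-1 then cuts pro-IL-1β and pro-IL-18 into their secreted forms and opens gasdermin D, whereas caspase-4 and caspase-5 bind bacterial lipopolysaccharide in the cytosol directly and also cut gasdermin D. In oncogene-induced senescence this pathway is known for its place upstream of interleukin-1 and the senescence-associated secretory phenotype.

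The levels came from poly(A)-selected, strand-specific RNA sequencing of IMR90 ER:RAS cells, human lung fibroblasts with a retrovirally delivered RAS fused to an oestrogen receptor domain, which 4-hydroxytamoxifen (4OHT) switches on. All cells carried this transgene and all received an siRNA by reverse transfection on the day ahead of induction, and RNA was taken on day 7. DMSO siNT (n = 5) were cells kept in DMSO with a non-targeting siRNA, 4OHT siNT (n = 6) were induced cells with the same kind of siRNA, and 4OHT siSMARCA4 (n = 6) were induced cells with an siRNA against SMARCA4, an ATPase of the SWI/SNF chromatin remodeller. There was no DMSO siSMARCA4 group, each siRNA carried the number 2 or 4, and each replicate tag ended in V or VM, which the labels leave undefined. Every 4OHT siNT library was VM, and so were 3 of the siSMARCA4 and 3 of the DMSO libraries.

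Library totals ran from 39.1 to 68.98 M counts (M, 1e6). SMARCA4 stood at 198 ± 19.2 counts per 1e6 counts of a library (CPM, scaled by TMM; SD, n = 5) in DMSO siNT, 268 ± 13.2 CPM (n = 6) in 4OHT siNT and 88.1 ± 22.8 CPM (n = 6) in 4OHT siSMARCA4, with the knocked-down libraries all below the others. Against the labelled cell type, the 10 fibroblast markers summed to between 7655 and 27774 CPM in every library, with 7 of them called lower and 1 higher in 4OHT siNT against DMSO siNT, and 7 lower with siSMARCA4 against siNT in 4OHT. The 10 monocyte and macrophage markers, for cells in which these genes are best known, summed to at most 1.59 CPM, and 2 of the 3 tested were higher in 4OHT siNT than in DMSO siNT. The 7 epithelial markers summed to 4.45 to 9.63 CPM in DMSO siNT and 2.22 to 3.09 CPM in 4OHT siNT, with both tested markers lower. The 5 endothelial markers summed to 3.47 to 10.8 and 10.01 to 14.4 CPM, with 3 of the 4 tested higher (PECAM1 by 5.80 on the log2 scale, to 0.936 CPM). With siSMARCA4 against siNT in 4OHT, both tested epithelial markers and 1 endothelial marker were lower. Of all tested genes, 27% were called higher and 27.4% lower in 4OHT siNT against DMSO siNT. With siSMARCA4 against siNT in 4OHT these shares were 10.4% and 13.8%. The part of other cells in the results below was not tested. In bulk RNA, fewer cells of a kind and less RNA per cell cannot be told apart.

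The comparison of 4OHT siNT with DMSO siNT addressed what senescence did to these genes. Most of the machinery was lower in senescent cells: NLRP1, PYCARD, CASP1, CARD16 and GSDMD fell, and CASP4 alone among the tested members rose. All 6 were called by edgeR (adjusted p under 0.05), 1 higher and 5 lower, where 54.4% of all tested genes were called, 27% higher and 27.4% lower. The libraries of the 2 groups did not overlap for any of the 6, a separation that 19.6% of all genes showed upward and 20% downward. The median log2 fold change of the 6 was -1.355, beside 0.00 for all genes.

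**Figure D1:**
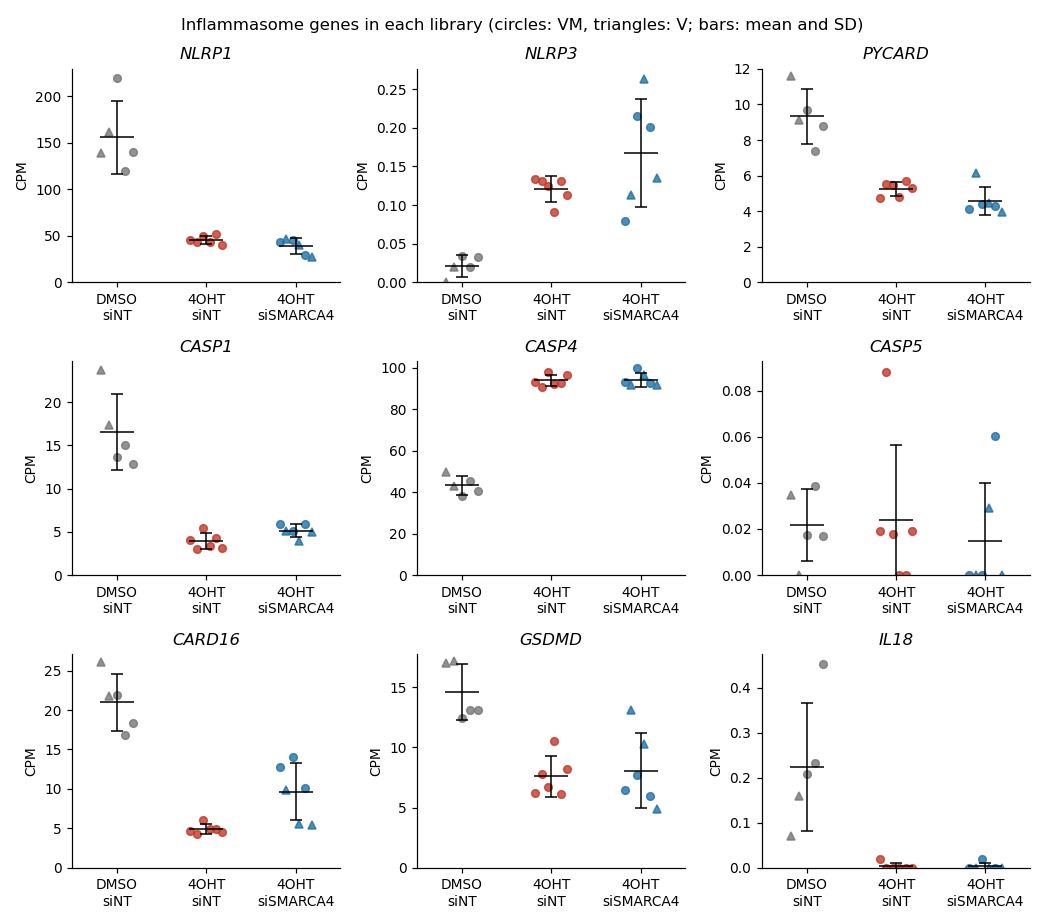
Level of each of the 9 genes in CPM (vertical axis, linear from 0) in every library of the 3 groups; circles are VM and triangles are V libraries, and bars give the mean and SD (n = 5, 6 and 6). CASP4 sits near 94 CPM in both 4OHT groups against 43.3 CPM in DMSO siNT, and CARD16 is the gene whose siSMARCA4 libraries spread most above 4OHT siNT.

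Among the sensors, NLRP1, which is triggered by proteases and by ribotoxic stress and is the main inflammasome sensor of human skin keratinocytes, had the most counts of the 9 genes in growing cells. In the DMSO libraries 2-1V, 2-2V, 2-2VM, 4-2VM and 4-3VM, an order kept for all genes below, it measured 139, 161, 220.0, 119 and 139.7 CPM. In 4OHT siNT it ran from 40.2 to 52.0 CPM with a median of 44.5. Every DMSO library lay far above every 4OHT siNT library, and the log2 fold change (log2FC) with its SE was -1.77 ± 0.16 (edgeR adjusted p 1.84e-08), a 3.41-fold fall. NLRP1 (ENSG00000091592; GRCh38 chr17:5499415-5619424) encloses an unnamed gene model on the same strand (ENSG00000286190), which held 87.4% as many counts as NLRP1 and moved with it (log2FC -1.97, edgeR adjusted p 7.91e-08), so how the reads of this stretch were divided between them is uncertain.

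NLRP3, the sensor of potassium efflux and crystals that is best known from macrophages, was close to absent. The 5 DMSO libraries held 0, 1, 2, 1 and 2 reads of it, the 4OHT siNT libraries 5 to 7 each and the siSMARCA4 libraries 4 to 18 each, so it did not enter the tested set. Every 4OHT library lay above every DMSO library, and the ratio of the summed counts, 36 over 6 reads, was 5.53-fold after scaling (exact 95% interval 2.31 to 16.1, counting error only). Without the filter on low counts, edgeR put the log2 fold change at 2.33 (SE 0.54, adjusted p 0.00141). There 25.4% of the 43519 genes with a count were called, 11.7% higher and 13.6% lower. With the siRNA number 4 libraries alone edgeR gave 1.92 (adjusted p 0.0519). In that set NLRP3 passed the filter only through siSMARCA4 libraries, 4-2V with 18 reads and 4-2VM with 10, so this value is no separate support. An unnamed long non-coding gene on the same strand (ENSG00000289728) overlaps NLRP3 and held 245 reads in all, against 98 for NLRP3, so these few reads could also have been divided between 2 gene models.

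PYCARD, which bridges sensors to caspase-1 through its PYD and CARD domains, measured 11.6, 9.16, 9.68, 7.40 and 8.79 CPM in DMSO siNT. It ran from 4.72 to 5.68 CPM (median 5.38) in 4OHT siNT, below all of these. The fall was 1.78-fold (log2FC -0.83 ± 0.12 SE, edgeR adjusted p 1.42e-05), the smallest of the 5 falls. PYCARD lies at GRCh38 chr16:31201486-31203450, and its antisense neighbour PYCARD-AS1 held 4.94% as many counts, which the strand-specific counting set apart.

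The inflammatory caspases split. CASP1, the caspase of the canonical inflammasome, measured 23.7, 17.4, 13.7, 15.03 and 12.8 CPM in DMSO siNT and 3.03 to 5.50 CPM (median 3.71) in 4OHT siNT. The lowest DMSO library was thus above the highest 4OHT siNT library, and the fall was 4.24-fold (log2FC -2.09 ± 0.18 SE, edgeR adjusted p 9.33e-09). Its DMSO V libraries, at 17.4 and 23.7 CPM, lay above its DMSO VM libraries, at 12.8 to 15.03 CPM, while 4OHT siNT held VM libraries only. CASP4, the human lipopolysaccharide sensor, measured 49.6, 43.1, 38.0, 45.4 and 40.5 CPM in DMSO siNT and 90.8 to 98.1 CPM (median 93.0) in 4OHT siNT. It rose 2.17-fold (log2FC 1.12 ± 0.07 SE, edgeR adjusted p 7.69e-11), with the 4OHT siNT libraries close together (SD 2.93% of their mean) and all above the DMSO libraries. CASP5, its close paralogue and the other lipopolysaccharide-binding caspase, had 6 reads over the 5 DMSO, 7 over the 6 4OHT siNT and 5 over the 6 siSMARCA4 libraries, and no library held more than 4. The ratio of its summed counts between 4OHT siNT and DMSO siNT, 1.08, had an exact interval of 0.309 to 3.87, so a rise like that of CASP4 lay within what counting error allows, whereas a fall as large as that of CASP1 lay outside it.

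The ratio of CASP4 to CASP1 within a library does not depend on how libraries are scaled. CASP4 had 2.09 to 3.15 times the counts of CASP1 in the DMSO libraries and 17.8 to 31.0 times in the 4OHT siNT libraries. The mean log2 ratio moved from 1.42 ± 0.24 (SD, n = 5) to 4.62 ± 0.31 (n = 6), a difference of 3.20 with an exact 2-sided permutation p of 0.00433, the smallest these groups allow (0.0144 adjusted over 10 ratio tests). Since CASP4 rose and CASP1 fell without overlap, this p follows from those results and adds no further test.

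CASP4, CASP5, CASP1 and CARD16 stand in a row on the minus strand of 11q22 within 159 kb: CASP4 at GRCh38 chr11:104942866-104969366, CASP5 at chr11:104994235-105023168, CASP1 at chr11:105025397-105035250 and CARD16 at chr11:105041326-105101431. The genes that moved in opposite directions were thus 56.0 kb apart, and CASP5, between them, was close to silent. CASP12, the next caspase beyond CASP4, rose from 0.171 ± 0.0881 to 0.702 ± 0.295 CPM (log2FC 2.01 ± 0.42 SE, edgeR adjusted p 4.24e-04), and CARD18, on the far side, had 6 reads in all 17 libraries. Within 1 Mb of this cluster on either side 6 more genes were tested, of which 3 were lower, 0 higher and the others not called in the same comparison. Of all tested genes 27.4% were called lower and 27% higher there.

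**Figure D2:**
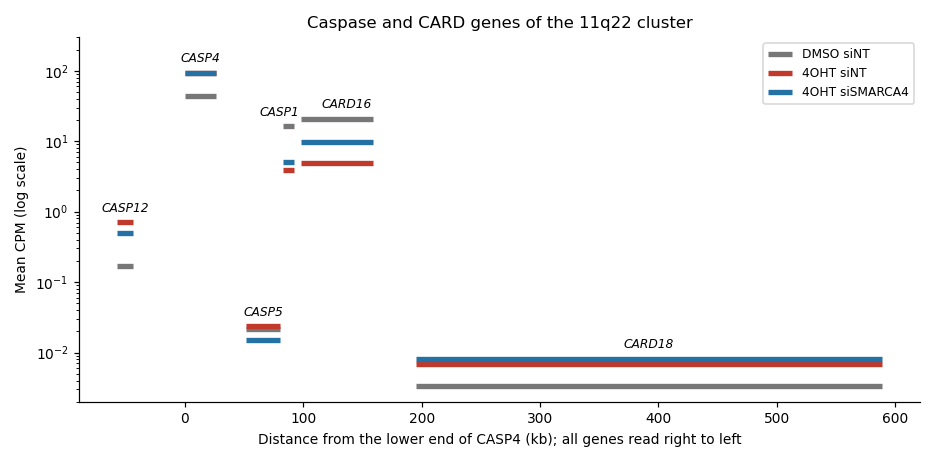
Mean CPM of each group (log axis; n = 5, 6 and 6) for the caspase and CARD genes of the 11q22 cluster, each drawn as a bar over its extent in kb from the lower end of CASP4. The DMSO bars lie below the 4OHT bars for CASP12 and CASP4 and above them for CASP1 and CARD16, while CASP5 and CARD18 stay under 0.03 CPM.

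The upstream sequences of CASP4 and CASP5 are shown because these neighbouring paralogues differ so much in level. RefSeq (GRCh38.p14) start sites were found for 4 of the 9 genes: NLRP3, PYCARD, CASP4 and CASP5, and not for CASP1, CARD16, NLRP1 and IL18, while GSDMD was not analysed for sequence here. Both sequences begin 250 bases before the RefSeq start and read 5′ to 3′ on the minus strand. That of CASP4 (chr11:104968729-104968824) stops at base -155 since the nearer 154 bases lie in an exon of a GENCODE transcript, and that of CASP5 (chr11:105023169-105023418) runs to base -1. The GENCODE extents given above for CASP4 and PYCARD reach beyond their RefSeq starts. The 250 bases searched for these genes thus lie inside those extents. Capitals mark matches to an interferon regulatory factor (IRF) motif, GAAA and GAAA with any 2 bases between, and to TTCNNNGAA, the STAT motif known as GAS.
CASP4: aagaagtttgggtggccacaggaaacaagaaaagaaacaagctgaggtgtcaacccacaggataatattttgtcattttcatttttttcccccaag
CASP5: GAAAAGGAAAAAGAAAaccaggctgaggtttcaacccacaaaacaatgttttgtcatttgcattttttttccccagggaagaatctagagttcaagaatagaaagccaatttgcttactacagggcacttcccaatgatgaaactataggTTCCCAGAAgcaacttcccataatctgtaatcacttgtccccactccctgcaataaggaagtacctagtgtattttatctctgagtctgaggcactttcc
In a global alignment of the full 250 bases of each, 175 of the 231 positions aligned without a gap were identical (75.8%). Both strands were searched. CASP5 held 2 overlapping IRF matches, at -250 to -241 and -244 to -235, and 1 GAS match at -100 to -92, whereas the 250 bases of CASP4 held neither. Of 35116 RefSeq promoters of this length, 3.02% held the IRF motif and 6.57% the GAS motif. Neither gene matched TGANTCA (AP-1, in 6.57% of promoters) or the NF-kB consensus (5.21%), and NLRP3 and PYCARD matched none of the 4 motifs. These are matches of letters only.

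CARD16, which consists of a CARD domain like that of caspase-1 and is known to bind and restrain it, measured 26.1, 21.8, 21.9, 16.8 and 18.4 CPM in DMSO siNT. In 4OHT siNT it ran from 4.24 to 6.07 CPM (median 4.76), so the groups were well apart. The fall was 4.29-fold (log2FC -2.10 ± 0.21 SE, edgeR adjusted p 1.20e-07), beside 4.24-fold for CASP1. Their log2 ratio was 0.36 ± 0.23 (SD, n = 5) in DMSO siNT and 0.35 ± 0.18 (n = 6) in 4OHT siNT, a difference of -0.01 (exact permutation p 0.931). CARD16 is a near copy of the first part of CASP1, and 35 of its 1665 distinct 110-base windows (2.10%) occurred base for base in a CASP1 transcript. Windows that match with some differing bases were not counted. The nearby CARD17P had no read in any library. Some reads of the pair could still have been divided between them.

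GSDMD, on chromosome 8, whose cut N-terminal part forms the membrane pore of pyroptosis, measured 17.04, 17.2, 12.4, 13.1 and 13.1 CPM in DMSO siNT. It ran from 6.10 to 10.6 CPM (median 7.22) in 4OHT siNT. The groups did not overlap, and the fall was 1.92-fold (log2FC -0.94 ± 0.21 SE, edgeR adjusted p 9.49e-04), although with the siRNA number 4 libraries alone it was -0.61 and not called (edgeR adjusted p 0.0917). Its DMSO V libraries, at 17.04 and 17.2 CPM, lay above its DMSO VM libraries, at 12.4 to 13.1 CPM, while 4OHT siNT held VM libraries only.

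IL18, the caspase-1 substrate that drives interferon-γ release from lymphocytes, was scarce in growing cells and almost gone in senescent ones. The DMSO libraries held 4, 8, 12, 12 and 27 reads of it. Each of the 4OHT siNT libraries held 0 reads except 2-1VM with 1, and each of the siSMARCA4 libraries held 0 except 2-3VM with 1. The scaled counts of 4OHT siNT were 68.4-fold below those of DMSO siNT (63 reads against 1), with an exact interval of 11.8 to 2743 that covers counting error only. Without the filter on low counts edgeR gave a log2 fold change of -5.35 (SE 0.77, adjusted p 2.21e-06). IL18 (ENSG00000150782; GRCh38 chr11:112143253-112164096) is overlapped on the other strand by a gene model with 9249 reads, which strand-specific counting kept apart. The DMSO libraries themselves differed widely, from 0.0698 to 0.453 CPM.

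IL18 and IL1B, the other main substrate of caspase-1, went opposite ways. IL1B was at 0.776 ± 0.377 CPM (SD, n = 5) in DMSO siNT and 887 ± 204 CPM (n = 6) in 4OHT siNT (log2FC 10.14 ± 0.48 SE, edgeR adjusted p 3.82e-12). The log2 ratio of IL18 to IL1B counts went from -1.83 ± 1.36 to -16.13 ± 0.77, and the log2 ratio of IL18BP, the secreted decoy for IL-18, to IL18 went from 4.08 ± 1.504 to 8.42 ± 0.92. Both ratios separated the groups fully (exact permutation p 0.00433 each, 0.0144 adjusted). For IL18 to IL1B this p follows from the separation of each gene by itself, since IL1B rose and IL18 fell without overlap. Since IL18 had 0 reads in 5 of the 6 4OHT siNT libraries, their size rests on the 0.5 added to each count: the differences were -14.3 and 4.33, and with 1 added they were -13.5 and 3.51. IL18BP itself stood at 3.67 ± 1.47 and 4.58 ± 2.16 CPM and was not called (log2FC 0.32, edgeR adjusted p 0.406).

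Per kb of annotated exon, the order of the levels changed with induction. In DMSO siNT CARD16 led with 12.7 ± 2.18 CPM per kb (SD, n = 5), followed by NLRP1 at 7.73, CASP4 at 6.50, PYCARD at 5.62, CASP1 at 4.17 and GSDMD at 2.87. Libraries of each neighbouring pair in that order overlapped, and the first gap without overlap was between GSDMD and IL18 at 0.0862 CPM per kb. The place of NLRP1 in these orders depends on how reads were divided between it and the gene model it encloses. In 4OHT siNT CASP4 came first with 14.1 ± 0.413 CPM per kb (n = 6), apart from all others. PYCARD at 3.16, CARD16 at 2.96, NLRP1 at 2.27, GSDMD at 1.49 and CASP1 at 0.982 CPM per kb followed, each overlapping the next, and NLRP3, CASP5 and IL18 were at 0.0255 or less. In 4OHT siSMARCA4 CASP4 again stood apart at 14.2 ± 0.507 CPM per kb, and CARD16 was the next at 5.86 ± 2.19, overlapping PYCARD at 2.75.

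The comparison of 4OHT siSMARCA4 with 4OHT siNT addressed what a partial knockdown of SMARCA4, to 32.8% of the 4OHT siNT mean, changed in senescent cells. CARD16 was the only member called: it rose 1.97-fold, from 4.88 ± 0.635 to 9.65 ± 3.60 CPM (SD, n = 6 each; log2FC 0.98 ± 0.20 SE, edgeR adjusted p 0.00225). In terms of the DMSO siNT level, it went from 23.3% to 46.0%. The 1 call among 6 tested members stands beside 24.2% of all genes called, 10.4% higher and 13.8% lower, and the members' median log2 fold change was 0.05, beside -0.02 for all genes. No member's libraries were apart in this comparison, where 4.54% of all genes were apart upward and 7.49% downward.

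**Figure D3:**
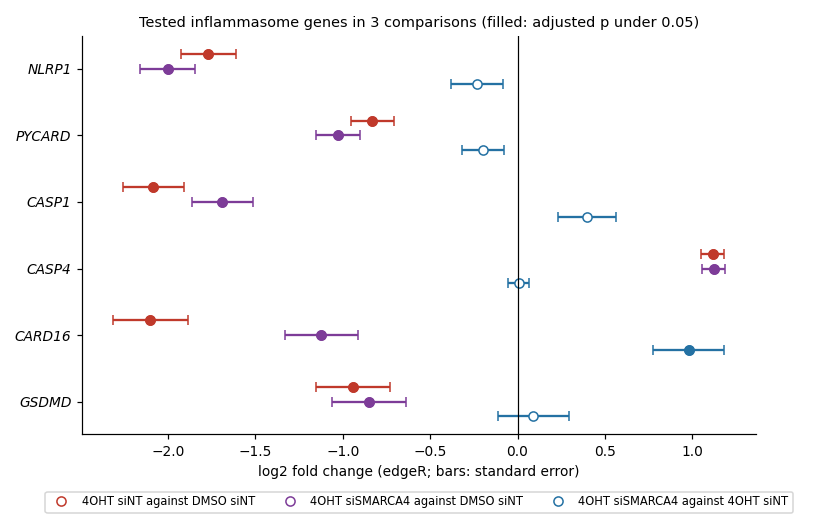
Log2 fold changes from edgeR (horizontal axis; bars are the SE) of the 6 tested members in the 3 comparisons, which share libraries. Filled points have an adjusted p under 0.05: all 6 against DMSO siNT in both 4OHT groups, and CARD16 alone (0.98) between siSMARCA4 and siNT in 4OHT.

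The rise of CARD16 was not the same in all libraries. The 6 siSMARCA4 libraries measured 12.8 (2-1VM), 9.91 (2-3V), 14.1 (2-3VM), 5.59 (4-2V), 10.1 (4-2VM) and 5.35 CPM (4-3V), against 4.24 to 6.07 CPM in 4OHT siNT. Thus 4 of the 6 lay above every 4OHT siNT library and the 2 V libraries of siRNA number 4 lay within their range. Effects by number set siSMARCA4 against siNT of the same number, although the labels do not say that these belong together. Between siNT 2 and siNT 4 in 4OHT, 4.68% of all genes were called by edgeR. The log2 fold change of CARD16 was 1.23 with siRNA number 2 and 0.63 with number 4 (edgeR adjusted p 7.96e-04 and 0.0525), where 19% and 16.1% of all genes were called. The difference between these, 0.60 (SE 0.29), was not called (edgeR adjusted p 0.341, where 1.06% of all genes were called). Without the siSMARCA4 library 4-2VM the difference was 0.96 and called (edgeR adjusted p 0.0225). That left number 4 with the V libraries 4-2V and 4-3V only, while number 2 had 2-1VM, 2-3V and 2-3VM. The number and the tag cannot be told apart in that fit, and V and VM were unevenly spread over the numbers in the full set too. In a separate fit of the number 4 libraries alone the rise was 0.67 and not called (edgeR adjusted p 0.117).

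The tags V and VM moved with CARD16 as well. Its 3 VM libraries with siSMARCA4 held 10.1 to 14.1 CPM and its 3 V libraries 5.35 to 9.91 CPM, and the SMARCA4 left after knockdown was 68.4 to 78.3 CPM in the VM and 82.7 to 127 CPM in the V libraries. With VM libraries only, 3 against 6, the CARD16 difference was 1.351 (SE 0.13, edgeR adjusted p 1.39e-05), and with the tag as a term it was 1.09 (edgeR adjusted p 0.00122). A V-only value could not be had, since 4OHT siNT held no V library. The part of the tag and of the residual SMARCA4 in the result was not tested.

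**Figure D4:**
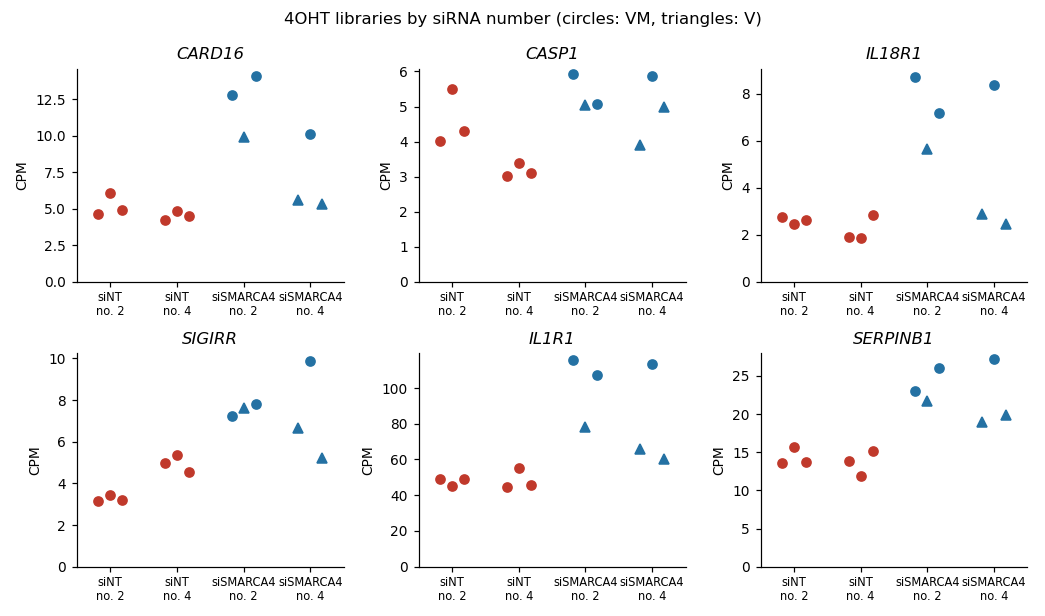
CPM (vertical axes, linear from 0) of CARD16, CASP1 and 4 related genes in the 12 libraries treated with 4OHT, by siRNA and its number; circles are VM and triangles are V libraries. For CARD16, CASP1, IL18R1, IL1R1 and SERPINB1 the 3 VM libraries with siSMARCA4 lie above its 3 V libraries; the 2 V libraries of number 4 lie within the siNT range for CARD16.

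CASP1 measured 3.89 to 5.94 CPM (median 5.06) with siSMARCA4 against 3.03 to 5.50 CPM with siNT. The ranges overlapped, and the log2 fold change of 0.40 (SE 0.17) was not called (edgeR adjusted p 0.0947). As with CARD16, the siSMARCA4 VM libraries, at 5.07 to 5.94 CPM, lay above its V libraries, at 3.89 to 5.05 CPM. It was called with the siRNA number as a term (0.42, edgeR adjusted p 0.0378), with VM libraries only (0.54, 0.0310), without the 4OHT siNT library 2-2VM (0.52, 0.0257) and without the siSMARCA4 library 4-2V (0.47, 0.0496). By siRNA it was 0.21 with number 2 (edgeR adjusted p 0.485) and 0.62 with number 4 (edgeR adjusted p 0.0428), the reverse of the order for CARD16. The difference between numbers was not called (edgeR adjusted p 0.512), nor was CASP1 in a separate fit of the number 4 libraries alone. Its siSMARCA4 means, 5.35 CPM with number 2 and 4.91 CPM with number 4, had the same order as those of CARD16. Its siNT libraries ran from 4.03 to 5.50 CPM with number 2 and from 3.03 to 3.40 CPM with number 4. That siNT log2 difference was 0.54 (edgeR adjusted p 0.126). Summing the counts of CASP1 and CARD16 into 1 row gave a rise of 0.75 (SE 0.17, edgeR adjusted p 0.00464), and the adjusted p over all alternatives ran from 0.00464 to 0.412. The log2 ratio of CARD16 to CASP1 went from 0.35 ± 0.18 to 0.83 ± 0.48 (SD, n = 6 each), a difference of 0.48 with an exact permutation p of 0.0519 (0.104 adjusted), so an unequal rise of the pair was not established. Without the siSMARCA4 library 4-3V it was 0.62 with an adjusted p of 0.0216 by the same exact permutation test.

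CASP4 was not called with the knockdown. With siSMARCA4 it measured 91.8 to 100.2 CPM (median 92.9), beside 90.8 to 98.1 with siNT, and the log2 fold change was 0.01 with an SE of 0.06 (edgeR adjusted p 0.957). The log2 ratio of CASP4 to CASP1 differed by -0.41 (exact permutation p 0.0390, 0.0974 adjusted), which passed the adjusted threshold without the 4OHT siNT library 2-2VM (-0.50, 0.0325) or the siSMARCA4 library 4-2V (-0.49, 0.0433).

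NLRP1 measured 27.3 to 47.1 CPM (median 42.0) with siSMARCA4, PYCARD 3.98 to 6.18 CPM (median 4.36) and GSDMD 4.89 to 13.1 CPM (median 7.08), all overlapping 4OHT siNT. Their log2 fold changes were -0.23 (SE 0.15), -0.20 (SE 0.12) and 0.09 (SE 0.20), with edgeR adjusted p of 0.280, 0.253 and 0.799. The sign for GSDMD was not stable: it was -0.16 with VM libraries only and -0.10 without the siSMARCA4 library 2-3V, whose 13.1 CPM was the highest of the group. By siRNA it was 0.52 with number 2 and -0.32 with number 4, neither called (edgeR adjusted p 0.193 and 0.442), nor was their difference (edgeR adjusted p 0.297). The siNT libraries of GSDMD ran from 6.10 to 6.67 CPM with number 2 and from 7.77 to 10.6 CPM with number 4. That siNT log2 difference was -0.48 (edgeR adjusted p 0.299). NLRP3 had 56 reads with siSMARCA4 and 36 with siNT, a scaled ratio of 1.44 (exact interval 0.928 to 2.25), and CASP5 had 5 and 7 reads, a ratio of 0.660 (0.165 to 2.41).

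Against DMSO siNT, the 4OHT siSMARCA4 libraries gave the same 6 directions, and all 6 members were called, 1 higher and 5 lower, where 55.1% of all genes were called, 26.5% higher and 28.6% lower. The log2 fold changes were -2.001 for NLRP1, -1.69 for CASP1, -1.12 for CARD16, -1.03 for PYCARD, -0.85 for GSDMD and 1.12 for CASP4, with edgeR adjusted p between 5.66e-11 and 0.00211. CASP1 was at 31.0% and NLRP1 at 25.0% of the DMSO siNT mean. This comparison shares libraries with both of the others.

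Of 60 further genes of the pathway, in 5 lists of sensors, decoys, effectors, IL-1 and IL-18 signalling genes and regulators, 35 were tested. Between 4OHT siNT and DMSO siNT 13 were higher, 9 lower and 13 not called, where 27% of all tested genes were higher and 27.4% lower, and their median log2 fold change was -0.01, beside 0.00 for all genes. Besides IL1B, the 5 largest rises without overlap were in IL1A (9.02), IL33 (4.34), CASP12 (2.01), TXNIP (1.48) and IL18R1 (1.34), that is, in alarmins of the IL-1 family, a caspase, an inhibitor of thioredoxin that binds NLRP3 and a chain of the IL-18 receptor. The 6 largest falls without overlap were in P2RX7 (-3.28), the ATP-gated channel that triggers NLRP3, the guanylate-binding proteins GBP1 (-2.70) and GBP3 (-1.72), which recruit caspase-4 to bacteria, NLRP10 (-1.86), SIGIRR (-1.03), a brake on IL-1 family receptors, and NLRX1 (-0.85). GBP1 went from 51.4 ± 19.3 CPM (SD, n = 5) to 7.93 ± 2.00 CPM (n = 6; edgeR adjusted p 2.87e-09), in the same libraries in which CASP4 rose.

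Of the 12 listed sensors, 2 were higher and 1 lower in 4OHT siNT, and 7 were not tested, where 54.4% of all tested genes were called. IFI16, a nuclear DNA sensor, rose from 68.4 ± 11.5 to 86.7 ± 8.19 CPM (log2FC 0.34, edgeR adjusted p 0.00840), with overlap. NLRP2 rose from 0.0865 ± 0.0852 to 0.254 ± 0.157 CPM (1.51, edgeR adjusted p 0.0296), also with overlap, and the fall was that of NLRP10. CARD8, which shares with NLRP1 a control by the peptidases DPP8 and DPP9, measured 12.9 ± 0.815 CPM in DMSO siNT and 11.2 ± 1.24 CPM in 4OHT siNT (log2FC -0.21, edgeR adjusted p 0.0558). AIM2, the cytosolic DNA sensor, had 1, 20 and 10 reads in DMSO siNT, 4OHT siNT and 4OHT siSMARCA4. Every 4OHT siNT library held more of it than every DMSO library, with a scaled ratio of 18.4 (exact interval 2.95 to 764, counting error only), and without the filter on low counts edgeR gave a log2 fold change of 3.52 (SE 0.85, adjusted p 0.00197). NLRC4, which works with NAIP proteins against bacterial flagellin, had 9, 8 and 22 reads. Of 6 tested effectors 1 was higher and 0 lower, beside the same 54.4%, and GSDME, another pore-forming gasdermin, was not called (61.2 ± 1.66 against 58.2 ± 2.82 CPM; log2FC -0.07, edgeR adjusted p 0.482).

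Between siSMARCA4 and siNT in 4OHT, 8 of the 35 were higher, 2 lower and 25 not called, with a median of -0.02, the same as for all genes, of which 10.4% were higher and 13.8% lower. Of the 8 tested IL-1 and IL-18 signalling genes 4 were higher and 0 lower, with a list median of 0.70 beside that -0.02. The other 4 lists had medians between -0.22 and -0.01 and 4 higher and 2 lower calls among 27 tested genes. IL1R1, the receptor that binds IL-1α and IL-1β, rose from 48.2 ± 3.90 to 90.2 ± 25.1 CPM (SD, n = 6 each; log2FC 0.90 ± 0.17 SE, edgeR adjusted p 9.74e-04), with no overlap. IL18R1 rose from 2.41 ± 0.423 to 5.87 ± 2.71 CPM (1.28, edgeR adjusted p 0.00266) and SIGIRR from 4.11 ± 0.962 to 7.42 ± 1.53 CPM (0.85, edgeR adjusted p 0.00115), both with overlap, while IL18 itself stayed at 1 read in each group. The fourth was IL1A (0.55, edgeR adjusted p 0.0366), whereas IL1B was not called (0.17, edgeR adjusted p 0.723) nor was IL18BP (-0.14, edgeR adjusted p 0.777).

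As with CARD16, the siSMARCA4 VM libraries held more IL1R1 than its V libraries, 107.6 to 116 against 60.0 to 78.1 CPM, and more IL18R1, 7.18 to 8.72 against 2.45 to 5.63 CPM. SERPINB1, an inhibitor that keeps CASP1, CASP4 and CASP5 from activating themselves, rose from 14.001 ± 1.34 to 22.8 ± 3.30 CPM (log2FC 0.70 ± 0.10 SE, edgeR adjusted p 9.36e-05), with no overlap. The falls were in TXNIP, from 130.0 ± 7.05 to 70.5 ± 32.4 CPM (-0.88, edgeR adjusted p 0.00838), and in GSDME, from 58.2 ± 2.82 to 43.7 ± 6.12 CPM (-0.41, edgeR adjusted p 0.00114), both with no overlap.

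By siRNA number, SERPINB1 and IL1R1 were called with both, whereas several others were called with number 2 alone. With siSMARCA4, number 4 had more V and fewer VM libraries than number 2. Differences between numbers can therefore not be told apart from the tag. With number 4 TXNIP gave -0.58 (edgeR adjusted p 0.129) beside -1.30 with number 2, IL18R1 1.04 (0.0711) beside 1.46, and SIGIRR 0.55 (0.0530) beside 1.21. For SIGIRR the siSMARCA4 means were close, 7.56 CPM with number 2 and 7.27 CPM with number 4. Its siNT libraries ran from 3.15 to 3.44 CPM with number 2 and from 4.56 to 5.34 CPM with number 4. That siNT log2 difference was -0.60 (edgeR adjusted p 0.0775). GSDME with number 4 gave -0.20 (edgeR adjusted p 0.0610) beside -0.65, and IL1A was called with neither number (0.40 and 0.66). Of these 7 genes, the difference between numbers itself was called for GSDME only.

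IL1A, IL1B and TXNIP were split by the tag the other way, with the V libraries of siSMARCA4 higher. IL1A measured 89.4 to 123 CPM in the V libraries and 57.6 to 69.0 CPM in the VM libraries, and the latter lay within the 44.7 to 74.4 CPM of 4OHT siNT, so its rise was seen in the V libraries alone. IL1B measured 1262 to 1778 CPM in the V libraries and 507 to 619 CPM in the VM libraries, and these VM libraries lay below all of 4OHT siNT (694 to 1270.4 CPM). TXNIP was at 68.8 to 116 CPM in the V and 40.7 to 50.8 CPM in the VM libraries. With no V library in 4OHT siNT, the tag and the knockdown cannot be told apart in the V libraries.

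The genes whose pattern over the 17 libraries was most like that of a member were found by the smallest root mean square difference of centred log2 CPM, among 13215 genes with a symbol and a mean of at least 1 CPM. For CASP4 these were IRF1 (0.09) and LGALS8 (0.10), for CASP1 SGO2 (0.19), and for CARD16 MDK (0.27) and GCNT4 (0.28). For PYCARD they were PRRT3 and GMDS-DT (0.14 each), for GSDMD OBSL1 (0.21) and CTSF (0.22), and for NLRP1 EGF (0.22) and EDIL3-DT (0.24). Among the members themselves, CASP1 was at rank 21 of the candidates for CARD16 and PYCARD at rank 35 of those for GSDMD. In the other direction CARD16 was at rank 172 for CASP1 and GSDMD at rank 952 for PYCARD. The libraries share the 3 group levels, so such likeness follows largely from the groups.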

How the data were processed

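Gene expression was measured by poly(A)-selected, directional, paired-end RNA sequencing in 17 libraries, grouped by the labels. The authors deposited, per library, a table of expected counts (estimated read-pair counts, written as whole numbers and not normalised) for 62754 genes and for repeat loci. They had trimmed reads with Cutadapt 4.7, aligned them to GRCh38 with HISAT2 2.2.1 keeping up to 100 alignments per pair, and counted with TElocal on Ensembl 100 genes; pairs that fit several features were shared among them by estimation, which can move counts between near copies and overlapping genes.

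Here repeat loci were summed to 1261 subfamilies and kept beside genes. Rows were filtered by edgeR's filterByExpr (minimum count 10, minimum total 15), scaled by TMM and tested by edgeR 4.0.16 quasi-likelihood with 1 term per group (R 4.3.3) and Benjamini-Hochberg adjustment over 19473 genes. A call is an adjusted p under 0.05. The script was tested on simulated data. Ratios of counts (0.5 added) were compared by exact 2-sided permutation tests, adjusted over 10 tests. Intervals of summed counts were exact (95%) and cover counting error only. DESeq2 1.42.0 served as an alternative. Gene positions and exon lengths came from GENCODE 44, a later annotation on the same build. Python 3.11.15 with scipy 1.17.1 was used for the rest.

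The members and gene lists were chosen with earlier results of these data known. All 9 members were named, with SMARCA4 and, from the 5 pathway lists, up to 6 called genes per direction with the largest change and no overlap in each of 2 comparisons, plus IL1B, IL1A, IL18BP, NLRC4, AIM2, CARD8 and GSDME; IL18R1 and SIGIRR in the knockdown comparison, IL1RAP, IFI16, NLRP2 and genes that overlap or neighbour a member were named after their values were seen. Some genes that these rules would name are not reported here. The labels do not say whether libraries came from separate cultures, so n counts libraries and p-values measure the spread between libraries. Some differ only in V or VM: siSMARCA4 2-3V and 2-3VM, siSMARCA4 4-2V and 4-2VM, and DMSO siNT 2-2V and 2-2VM. If such libraries share a culture, the number of independent cultures is smaller than n. Libraries of 2 groups that share a whole replicate label, such as 4-2VM, had deviations from their group means that correlated from -0.40 to 0.34. The highest was 2-3VM between siSMARCA4 and siNT in 4OHT, where the same label was also the best match. Libraries that share the replicate number alone were not compared, so this check cannot settle whether numbers pair. They were not used as pairs.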

Additional observations from a re-analysis of the deposited data

Results flagged for a closer look

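In 4 of 45 groups of values examined, 1 library stood far from the others of its group. Among libraries with 0 reads a lone read stands out in any case, so no chance rate is set beside this. PYCARD was at 6.18 CPM in the siSMARCA4 library 2-3V, while the other 5 lay between 3.98 and 4.45 CPM. CASP5 was at 0.0878 CPM in the 4OHT siNT library 4-1VM, which is 4 reads. IL18 was at 0.0192 CPM in the 4OHT siNT library 2-1VM and at 0.0196 CPM in the siSMARCA4 library 2-3VM, which is 1 read each among libraries with 0.

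For GSDME and IL1RAP, siSMARCA4 against siNT of the same number differed between number 2 and number 4, by an edgeR test of that difference. The labels do not make an siNT the matched control of the siSMARCA4 of its number, so any gap between the siNTs enters. Any gap between V and VM libraries enters too, since the siSMARCA4 libraries of number 4 were more often V. The log2 difference, number 2 minus number 4, was -0.45 for GSDME (edgeR adjusted p 0.0396) and -1.13 for IL1RAP, the shared chain of IL-1 family receptors (edgeR adjusted p 0.0183). GSDME gave -0.65 with number 2, which was called, and -0.20 with number 4, which was not (edgeR adjusted p 0.0610), whereas IL1RAP had opposite signs (-0.54 and 0.59). For IL1RAP the 4OHT siNT libraries themselves differed by number, with 8.35 to 9.59 CPM for number 2 and 5.71 to 6.23 CPM for number 4 (log2 difference 0.56, edgeR adjusted p 0.0366), so its difference is not one of the siSMARCA4 libraries alone.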

How the results depend on the processing

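Against DMSO siNT the values of the 6 tested members kept their sign under all alternatives in both 4OHT groups, and their call under all but the fit of siRNA number 4 libraries alone, in which GSDMD in 4OHT siNT gave -0.61. For siSMARCA4 against siNT in 4OHT, 132 of 147 alternatives kept sign and call. CARD16 ranged from 0.67 to 1.351. With siRNA number 4 libraries alone, 1198 genes were called in place of 4703 and 0 of 8 tested members by edgeR (3 at an unadjusted p under 0.05) in place of 1 of 6, while 2 members were called with the siRNA number as a term and with VM libraries only. NLRP3 and IL18 entered the 8 tested only through the group where each had the most reads. That group was siSMARCA4 for NLRP3 and DMSO siNT for IL18. The sign of GSDMD turned under the replicate block (-0.16), with the tag V or VM as a covariate (-0.16), with VM libraries only (-0.16) and with number 4 alone (-0.29), with number 2 alone it was 0.56, and over libraries left out it ran from -0.10 to 0.21. CASP4 gave -0.0228 with the tag as a covariate and from -0.0110 to 0.0190 over libraries left out.

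The difference between siRNA numbers rested on few libraries: 207 genes were called, from 17 without the siSMARCA4 library 2-3VM to 845 without 4-2VM, and 741 by DESeq2. That of CARD16 ran from 0.44 to 0.96 over libraries left out. The 0.96 came without 4-2VM, which left siSMARCA4 number 4 with V libraries only. Whether the labels' replicate tags pair the libraries is not known. With the replicate block, 4444 genes were called for the knockdown, 9429 for senescence and 197 for the siRNA numbers, CARD16 gave 1.18, and the members called were as without it.

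With VM libraries only, 6 against 3, where no p can go below 0.0238, the ratios against DMSO siNT were 3.05 (CASP4 to CASP1), 5.08 (IL18BP to IL18) and -14.8 (IL18 to IL1B), adjusted p 0.0595 each by exact permutation, and for the knockdown they were -0.34 (IL18BP to IL18) and 0.92 (IL18 to IL1B). Over libraries left out, the knockdown differences ran from 0.35 to 0.62 for CARD16 to CASP1, from -0.50 to -0.34 for CASP4 to CASP1, from -0.0781 to 0.39 for IL18BP to IL18 and from -0.58 to 0.19 for IL18 to IL1B, and CARD16 to CASP1 against DMSO siNT from -0.0705 to 0.0645. The cause of these shifts was not tested. Members with under 100 reads are limited by counting error.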
